A study of Arabidopsis thaliana with 7 samples.

Results

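The genes of chlorophyll, haem and carotenoid synthesis were examined in wild-type Arabidopsis thaliana seedlings of the accession Col-0. The set was chosen by identifier from the known enzymes and regulators of these pathways, by a rule that uses no measured value but was set with earlier results of these data known, and holds 34 of the 33602 genes in the deposited RNA count table. It has 22 tetrapyrrole genes, from the synthesis of 5-aminolevulinic acid (ALA) to chlorophyll, haem and bilin, and 12 carotenoid genes. RNA was measured in 1 group of 3 replicate libraries, all from untreated plants raised for 14 days at 22 °C on MS plates in a cycle of 16 h light and 8 h dark. The chromatin part of the series (4 libraries, for 3 states of H3K4 methylation and an input) was not used here. No second RNA condition was compared, so the data give the level of each gene, the division of counts between copies of one enzyme, and the spread between replicates. Whether the replicates were separate cultures is not stated in the labels, so that spread may be technical. Whole seedlings were used, so fewer cells of a type and less RNA per cell cannot be told apart.

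Chlorophyll and haem are tetrapyrroles made in the plastid from ALA. The pathway forks at protoporphyrin IX, into which magnesium chelatase inserts magnesium for chlorophyll and ferrochelatase inserts iron for haem, which also gives rise to the phytochrome chromophore. Free intermediates of the chlorophyll branch are phototoxic, so entry and branching are tightly controlled in green tissue. Carotenoids are plastid isoprenoids that harvest light, quench excess excitation and serve as precursors of abscisic acid.

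The 3 libraries held 18493022 to 30946664 counts assigned to genes, and the pigment genes made up 0.537%, 0.544% and 0.543% of them in replicates 1, 2 and 3. Ribosomal RNA genes took 1.20%, 1.39% and 2.97% of the counts. The green tissue markers RBCS1A, LHCB1.3 and RCA stood at a mean of 10326, 7065 and 4510 CPM (counts scaled to a common library total with TMM, a correction for library composition). The root marker PYK10 stood at 2385 CPM, the other root marker used, AT5G43350, at 42.6 CPM, and the seed storage gene CRA1 at 16.2 CPM. Of the pollen receptor genes ANX1 had 4 counts in 1 library and ANX2 had none. No transcript lengths of the authors' annotation were used, so CPM values of different genes are given side by side and no order of levels is drawn from them. A comparison of one gene between libraries does not depend on length.

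Nearly the whole set was transcribed. A mean of at least 1 CPM was reached by 33 of 34 genes, a level reached by 56.3% of all genes in the table. A mean of at least 10 CPM was reached by 32 (all genes 37.7%) and one of at least 100 CPM by 21 (all genes 5.90%). The genes of the table include ribosomal RNA genes and 279 organelle genes, of which 0 had counts. The background was thus not matched to the members in gene type, here and for the further lists below, and the shares are only set side by side. The exception at the lowest limit was PORA, and BCH2 lay between 1 and 10 CPM. The median of the 34 means was 125 CPM. Over the 33 expressed members it was 131 CPM, against 19.1 CPM over the 18915 genes expressed at 1 CPM or more. These medians are not corrected for transcript length. Each of the 33 expressed members kept its class (1 to under 10, 10 to under 100, or 100 CPM and over) in every library, as did 91.6% of all expressed genes.

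**Figure D1:**
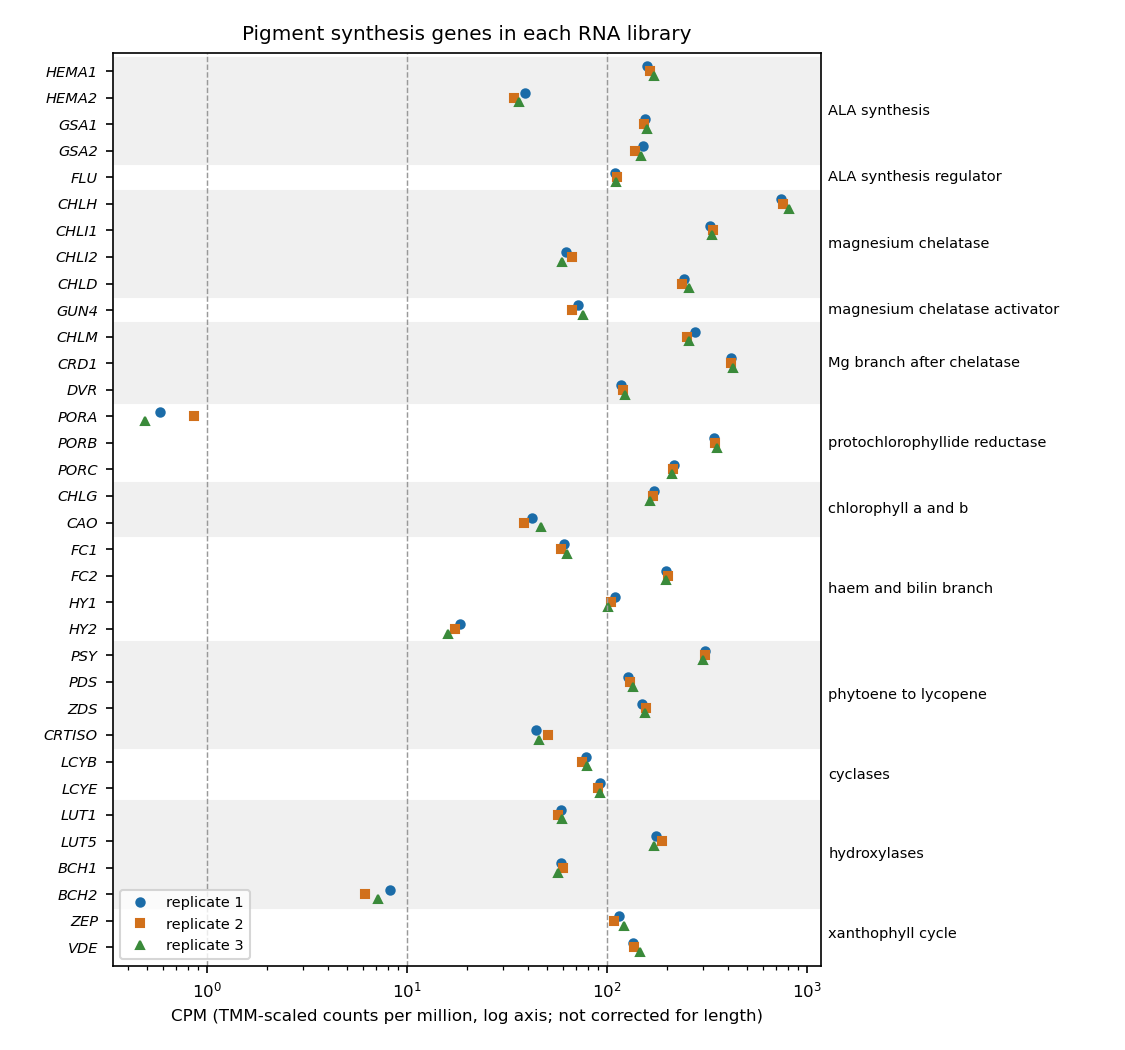
CPM of the 34 genes on a log axis, with 1 marker for each library and genes arranged by pathway step; dashed lines mark 1, 10 and 100 CPM. The 3 markers of most genes nearly coincide, PORA alone lies left of the 1 CPM line, and BCH2 lies between 1 and 10 CPM.

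ALA synthesis starts from glutamyl-tRNA and is the point at which flow into the pathway is set. HEMA1 (AT1G58290), the glutamyl-tRNA reductase of green tissue, stood at 159, 163 and 172 CPM in replicates 1, 2 and 3. HEMA2 (AT1G09940), its second copy, stood at 38.8, 34.4 and 36.4 CPM. The ranges of the copies do not overlap, and HEMA1 took 81.8 ± 1.27% (SD, n = 3) of their joint counts. The HEMA1 transcript would have to be 4.10 to 4.75 times as long as that of HEMA2 for their levels per length to be equal.

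The next enzyme, glutamate-1-semialdehyde aminomutase, is encoded by a pair of copies that shared the counts almost evenly. GSA1 (AT5G63570) stood at 155, 153 and 158 CPM. GSA2 (AT3G48730) stood at 151, 138 and 148 CPM and took 48.4 ± 0.861% (SD, n = 3) of the counts of the pair. GSA1 was the larger in each library, by 1.03 to 1.103 times, and a transcript length difference of that size would reverse the order. FLU (AT3G14110), a negative regulator that restrains ALA synthesis, stood at 110, 112 and 110 CPM. FLU overlaps a gene at 121 CPM (AT3G14100) in the TAIR10.1 annotation, and the strand setting of the counting is not given, so a part of its counts is uncertain.

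Magnesium chelatase is a complex of the subunits H, I and D. CHLH (AT5G13630, GUN5 in the gene table), the porphyrin-binding subunit, stood at 741, 758 and 812 CPM, highest in replicate 3. CHLD (AT1G08520) stood at 243, 238 and 256 CPM, and the counts of CHLH were 3.05 to 3.19 times those of CHLD. Both subunits were highest in replicate 3, which was the highest library for 33% of all expressed genes. Whether the subunits vary together was not tested.

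The ATPase subunit I has 2 gene copies. CHLI1 (AT4G18480) stood at 325, 339 and 335 CPM. CHLI2 (AT5G45930) stood at 62.3, 66.5 and 59.3 CPM. CHLI1 took 84.2 ± 0.706% (SD, n = 3) of the joint counts, and equal levels per length would need a CHLI1 transcript 5.10 to 5.65 times as long. GUN4 (AT3G59400), a porphyrin-binding protein that activates the chelatase, stood at 71.3, 66.4 and 76.0 CPM, lowest in replicate 2.

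The steps between the chelatase and protochlorophyllide were represented by CHLM, CRD1 and DVR. CHLM (AT4G25080), the methyltransferase that acts on magnesium protoporphyrin, stood at 275, 252 and 256 CPM, with replicate 1 above the others. CRD1 (AT3G56940), a subunit of the aerobic cyclase that closes the isocyclic ring, stood at 416, 414 and 427 CPM. DVR (AT5G18660, PCB2 in the table), which reduces a vinyl side chain, stood at 117, 121 and 123 CPM.

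Protochlorophyllide reductase, the light-dependent step, showed the most uneven division among gene copies. PORB (AT4G27440) stood at 344, 347 and 353 CPM. PORC (AT1G03630) stood at 215, 214 and 210 CPM. PORA (AT5G54190), which is known for its expression in dark-grown seedlings and its decline in light, had 18, 16 and 10 counts, or 0.582, 0.855 and 0.487 CPM.

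PORB thus took 61.9 ± 0.614% (SD, n = 3) of the counts of the 3 copies. PORC took 38.5%, 38.1% and 37.3% in replicates 1, 2 and 3. The share of PORA was 0.104%, 0.152% and 0.0864% in replicates 1, 2 and 3, with 95% Wilson intervals of 0.0547 to 0.197%, 0.0772 to 0.300% and 0.0369 to 0.202%. The intervals overlap, and the difference in the PORA share between libraries was not tested. The counts of PORC were 250 to 432 times those of PORA, and those of PORB 406 to 724 times. The counts of PORA were above the floor of 3 read pairs (6 counts) in every library. In replicate 3 the 95% interval for counting error, 3.25 to 23.3 counts, still included that floor. Close copies can also exchange reads, and the handling of reads that match several copies is not given.

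CHLG and CAO complete chlorophyll. CHLG (AT3G51820, G4 in the table), the chlorophyll synthase that attaches the phytol tail, stood at 172, 169 and 163 CPM. CAO (AT1G44446, CH1 in the table), the oxygenase that makes chlorophyll b from chlorophyll a, stood at 42.1, 38.5 and 46.7 CPM. Its highest library was 1.21 times its lowest.

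On the haem side the ferrochelatase copies again divided unequally. FC2 (AT2G30390), which is associated with green tissue, stood at 197, 203 and 197 CPM. FC1 (AT5G26030), which is also expressed in roots, stood at 60.9, 59.1 and 62.7 CPM. FC2 took 76.5 ± 0.814% (SD, n = 3) of the joint counts, and equal levels per length would need an FC2 transcript 3.14 to 3.43 times as long. The ranges of FC1 and FC2 do not overlap.

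HY1 and HY2 turn haem into the phytochrome chromophore. HY1 (AT2G26670, TED4 in the table), the plastid haem oxygenase, stood at 109, 105 and 100.5 CPM. HY2 (AT3G09150), phytochromobilin synthase, stood at 18.4, 17.4 and 16.1 CPM. Both were highest in replicate 1 and lowest in replicate 3. Replicate 1 was the highest library for 33.3% of all expressed genes and replicate 3 the lowest for 34.9%. Neither gene was called as varying beyond counting error (edgeR with dispersion 0 on halved counts, adjusted p = 0.35 for HY1 and 0.66 for HY2).

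**Figure D2:**
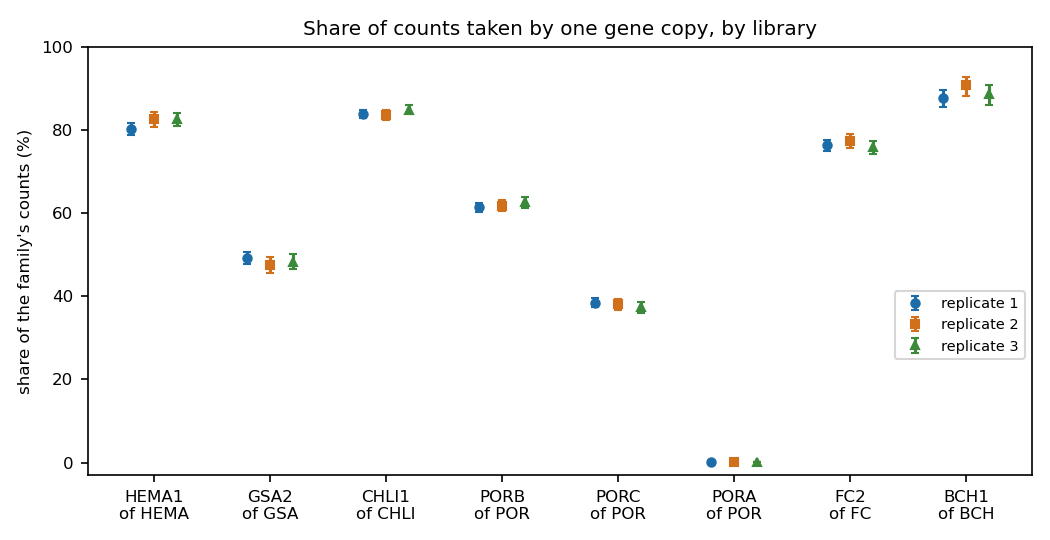
Share of the counts of an enzyme family taken by 1 copy, in percent, with a marker for each library; bars are 95% Wilson intervals on halved counts and cover counting error only. HEMA1, CHLI1, FC2 and BCH1 each hold over 75% of their family in every library, GSA2 lies just under 50%, and PORA lies at the bottom of the axis.

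Carotenoid synthesis begins with phytoene synthase, which is held to limit flow into the pathway. PSY (AT5G17230), the single gene for that enzyme in this plant, stood at 308, 310 and 302 CPM. PDS (AT4G14210, PDS3 in the table), which desaturates phytoene, stood at 127, 130 and 135 CPM. ZDS (AT3G04870), the zeta-carotene desaturase, stood at 149, 156 and 154 CPM. The isomerase gene CRTISO (AT1G06820), whose product yields all-trans lycopene, stood at 43.9, 50.8 and 45.5 CPM, highest in replicate 2.

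Lycopene is then cyclised along either of a pair of branches. LCYB (AT3G10230, LYC in the table), the beta-cyclase used in both, stood at 78.2, 75.2 and 79.2 CPM. LCYE (AT5G57030, LUT2 in the table), the epsilon-cyclase that commits lycopene to lutein, stood at 92.2, 89.7 and 91.9 CPM. The ratio of LCYE to LCYB counts was 1.18 ± 0.0169 (SD, n = 3), and each library lay between 1.16 and 1.19. The ratio is not corrected for transcript length, so no order of levels is drawn from it. LCYE overlaps a gene at 65.9 CPM (AT5G57020) in the TAIR10.1 annotation, and LCYB also overlaps other genes. The counts of both cyclase genes and their ratio are thus uncertain in the same way as the counts of FLU.

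Ring hydroxylation is done by cytochrome P450 enzymes and by non-haem di-iron enzymes. LUT5 (AT1G31800, CYP97A3 in the table), a P450 of the beta ring, stood at 176, 189 and 172 CPM. LUT1 (AT3G53130), the P450 of the epsilon ring, stood at 59.0, 56.8 and 59.6 CPM. The di-iron hydroxylase gene BCH1 (AT4G25700) stood at 58.5, 60.2 and 56.5 CPM and its copy BCH2 (AT5G52570) at 8.18, 6.15 and 7.16 CPM. BCH1 took 89.1 ± 1.53% (SD, n = 3) of the counts of the pair, and equal levels per length would need a BCH1 transcript 7.16 to 9.80 times as long. BCH2 overlaps a gene at 40.3 CPM (AT5G52560) in the TAIR10.1 annotation, which is above its own level, so its counts and its share are uncertain in the same way as those of FLU.

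The xanthophyll cycle interconverts zeaxanthin and violaxanthin with light. ZEP (AT5G67030, ABA1 in the table), the epoxidase, stood at 115, 108 and 122 CPM. VDE (AT1G08550, NPQ1 in the table), the de-epoxidase that acts in excess light, stood at 134, 136 and 146 CPM. Both were highest in replicate 3, the highest library for 33% of all expressed genes. The ratio of VDE to ZEP counts was 1.17 to 1.27.

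Counts summed over the genes of a branch or step were compared between libraries. The 22 tetrapyrrole genes summed to 4025, 4008 and 4118 CPM and the 12 carotenoid genes to 1350, 1368 and 1370 CPM. Carotenoid genes were thus 25.1%, 25.4% and 24.96% of the summed CPM of the set in replicates 1, 2 and 3. The POR sum varied by a coefficient of variation (CV, the SD as a percentage of the mean) of 0.352%, at 560, 562 and 564 CPM. The 4 chelatase genes summed to 1372, 1401 and 1461 CPM, a CV of 3.23%, and the xanthophyll cycle pair had a CV of 4.87%. The highest CV of a step was 6.77%, for GUN4 alone. These sums are not corrected for length and are compared between libraries only.

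**Figure D3:**
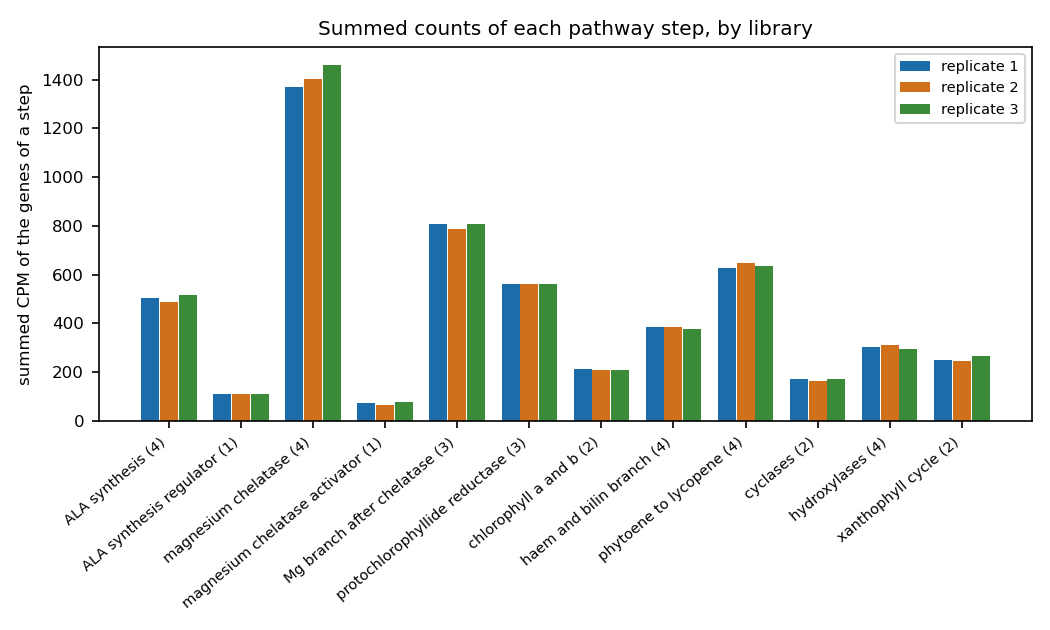
Summed CPM of the genes of each pathway step, with 1 bar for each library and the number of genes in brackets. Bars within a step are of nearly equal height, and the chelatase bars run from 1372 to 1461 CPM.

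No member was called as varying between replicates beyond genes of its own level. In edgeR's goodness-of-fit test with the trended dispersion, adjusted by Benjamini-Hochberg over 18915 genes, 0.148% of all genes were called and 0 of the 33 members tested (adjusted p = 0.9999 for each). At an unadjusted p under 0.05 the test had 0 of 33 members, against 4.61% of all genes. With DESeq2's dispersion trend and size factors the count of members called was also 0. PORA fell below the filter and was not among the genes tested. With 3 libraries, a test that calls no member does not show that the members were equal between libraries.

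Against counting error alone, 2 of the 33 members were called, CHLH and CHLM. Among all genes tested 6.36% were called. That share rose with the filter on level, from 4.89% with no filter to 8.01% at a mean of at least 5 CPM. The members tested had a median of 131 CPM, against 19.1 CPM over all expressed genes. The background was thus not matched to the members in level, and the shares are only set side by side. This test set the dispersion to 0 and used halved counts, since low counts in the table were mostly even. CHLH had an adjusted p of 2.08e-07 in that edgeR test and was highest in replicate 3, where the ribosomal RNA share was also highest; the part of that share in the result was not tested. Without replicate 3 the adjusted p of CHLH was 0.51. CHLM had an adjusted p of 0.019 and was highest in replicate 1, and its adjusted p was 0.82 without replicate 1 and 0.071 without replicate 2.

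The spread between replicates was set beside that of other genes of the same class. Among members at 100 CPM and over the median CV was 2.69%, against 3.61% for all genes of that class, and at 10 to under 100 CPM it was 5.82% against 6.07%. FLU at 0.812% and PORC at 1.23% had the lowest values of the members. BCH2 at 14.2% and CAO at 9.59% had the highest of the expressed members, and PORA, with its few counts, had 29.8%. The median ratio of the highest to the lowest library was 1.07 over the 33 expressed members.

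**Figure D4:**
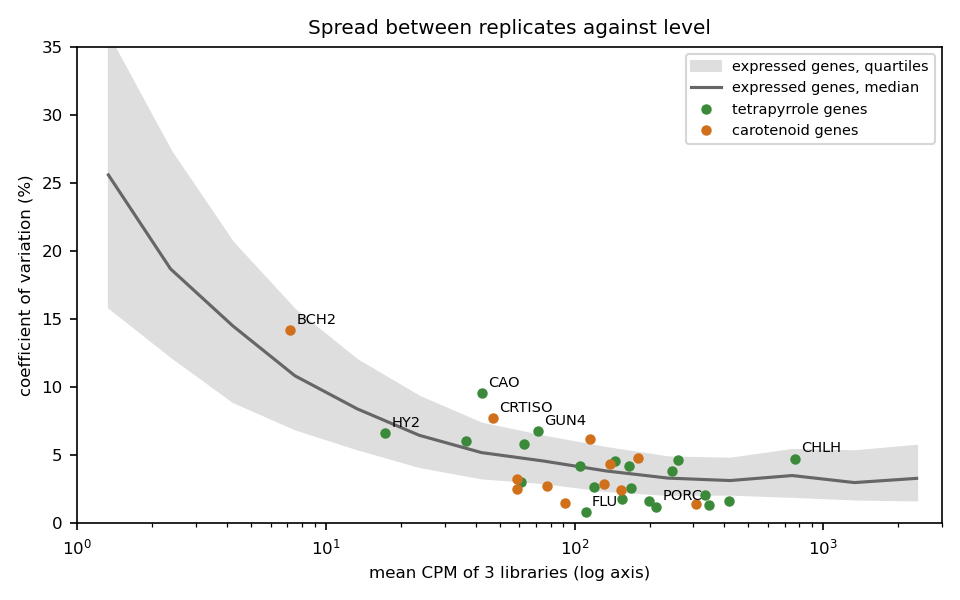
CV over 3 libraries in percent against mean CPM on a log axis, for the 33 expressed members (points) and for all expressed genes (median line and quartile band in bins of level). The members follow the fall of the CV with level, and BCH2 and CAO have the highest values.

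Members did not all lean toward one library. Replicate 1 was above the mean of the others in 17 of 33 members (51.4% of all expressed genes), replicate 2 in 14 (50.9%) and replicate 3 in 20 (49.5%). The background share depended on level. At 100 CPM and over, it was 54.5%, 42.7% and 53.5% of all genes for replicates 1, 2 and 3, and 8, 10 and 13 of 21 members. Over the 33 members the median log2 differences were 0.00083, -0.020 and 0.015 for replicates 1, 2 and 3, against 0.0048, 0.0030 and -0.0017 over all expressed genes. The highest library was replicate 1 for 9 members, replicate 2 for 9 and replicate 3 for 15, against 33.3%, 33.7% and 33.0% of all expressed genes. The lowest was replicate 1 for 10, replicate 2 for 14 and replicate 3 for 9, against 31.9%, 33.1% and 34.9%. The background shares for the highest and lowest library were not matched to the members in level. The 15 members highest in replicate 3 were HEMA1, GSA1, CHLH, CHLD, GUN4, CRD1, PORB, DVR, CAO, FC1, PDS, LCYB, LUT1, ZEP and VDE. The largest of these log2 differences in replicate 3 were 0.21 for CAO, 0.14 for GUN4 and 0.13 for ZEP. CAO, GUN4 and ZEP passed neither test, whereas CHLH passed the test against counting error.

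**Figure D5:**
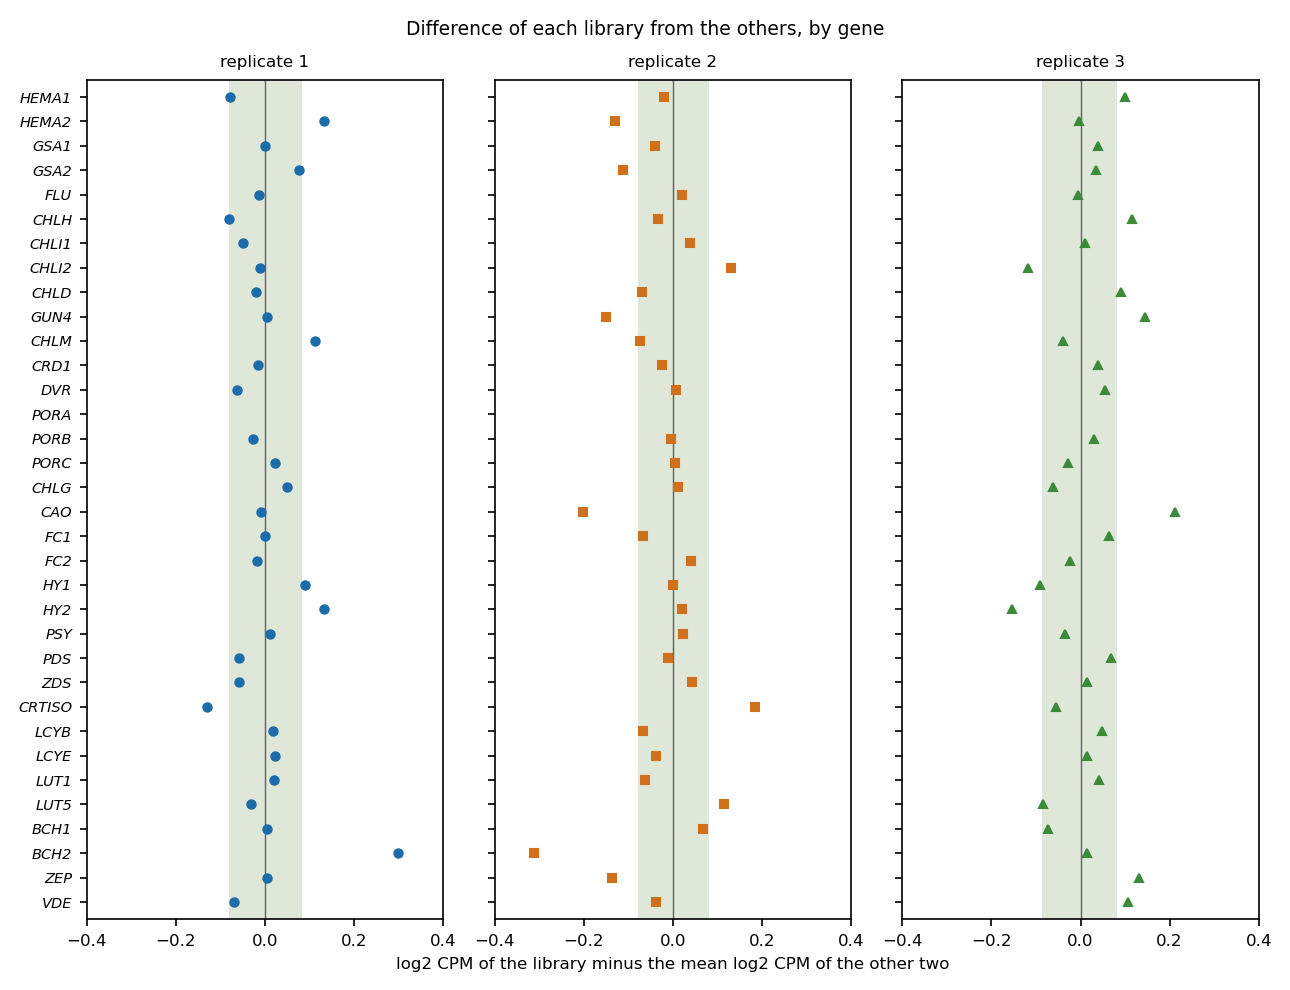
Log2 CPM (prior count 2) of each library minus the mean of the other libraries, for each expressed member; the shaded band runs from the lower to the upper quartile of the 12684 genes at 10 CPM or more, and PORA is left out. Points lie on both sides of 0 in each library, and BCH2 and CAO have the widest differences.

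The rest of the tetrapyrrole pathway was taken from a list of 22 further genes, of which 19 were expressed, against 56.3% of all genes. None of the 19 passed edgeR's test on the trended dispersion, and 0 had an unadjusted p under 0.05. CHLP (AT1G74470), which makes the phytol tail, stood at 672, 640 and 690 CPM. GUN1 (AT2G31400), a plastid signalling protein, stood at 395, 387 and 418 CPM, and HEMC (AT5G08280), porphobilinogen deaminase, at 252, 252 and 265 CPM. At the other end, HO4 (AT1G58300), a haem oxygenase gene next to HEMA1 on chromosome 1, had 6, 0 and 6 counts, and HEMB2 (AT1G44318) had 2, 0 and 0. Neither exceeded the floor of 6 counts in any library. HO3 was the other gene of that list under 1 CPM, at 0.566 ± 0.299 CPM (SD, n = 3). Against counting error alone, 3 of the 19 genes were called, CHLP, GUN1 and LIL3:2, against 6.36% of all genes tested. Their means were 667, 400 and 215 CPM. The background was not matched to the list in level, so the shares are only set side by side.

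Of 15 further carotenoid genes 9 were expressed, a share of 60.0% against 56.3% of all genes. In the same edgeR test 0 of them were called, 0 had an unadjusted p under 0.05, and 0 were called against counting error. The cleavage dioxygenase gene CCD1 (AT3G63520) stood at 378, 390 and 380 CPM. CYP97B3 (AT4G15110), a relative of LUT5, stood at 111, 115 and 104 CPM, and CRTISO2 (AT1G57770) at 72.8, 81.3 and 78.4 CPM. The strigolactone gene CCD7 (AT2G44990) had 0, 4 and 0 counts, and NCED6 (AT3G24220) had none, for which a count of 0 leaves room for 3 read pairs, or 6 counts, in each library (0.321 CPM in replicate 2). Of the 5 NCED genes, whose products cleave epoxycarotenoids for abscisic acid, NCED3 alone passed 1 CPM, at 8.18 ± 0.839 CPM (SD, n = 3).

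All 10 genes of a list drawn up around the plastid pathway that supplies isoprenoid precursors were expressed (56.3% of all genes). The edgeR test on the trended dispersion called 0 of them, with 0 at an unadjusted p under 0.05. ISPG (AT5G60600, HDS in the table), which makes the last intermediate of that pathway, stood at 584, 584 and 625 CPM. DXS (AT4G15560, CLA1 in the table), its entry enzyme, stood at 326, 351 and 337 CPM, and ISPH (AT4G34350), its last enzyme, at 182, 185 and 183 CPM. IPP1 (AT5G16440) stood at 38.6, 38.9 and 35.5 CPM and ISPD (AT2G02500) at 19.9, 21.3 and 19.97 CPM. Against counting error alone, 1 of the 10 was called, ISPG (edgeR with dispersion 0 on halved counts, adjusted p = 0.0018), against 6.36% of all genes tested. That background was not matched to this list in level either.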

How the data were processed

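The authors deposited raw counts per gene, with 1 column for each of 3 RNA libraries. The submitters' processing notes name featureCounts, HISAT2, cutadapt, SAMtools 1.13, Bowtie2 2.4.5 and deepTools 3.5.1 without roles, and TAIR10 as the build. A stranded RNA kit was used, according to the labels' protocols. Not given in the sources used here are the annotation release, the strand setting, and the handling of read pairs and of multiply matching reads. In the TAIR10.1 gene table, 20 of 34 members overlap another gene, so their counts carry that uncertainty. Between 84.5% and 86.2% of counts from 1 to 19 were even, as if read pairs counted as 2, so intervals used halved counts. Of counts of 1000 and over, 50.3%, 51.1% and 49.9% were even in replicates 1, 2 and 3, and of the 34 members 13, 18 and 21. The sign thus comes from low counts, and halving at higher counts is an assumption.

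CPM came from edgeR 4.0.16 under R 4.3.3 (TMM factors 0.989 to 1.01). Replicate spread was tested with edgeR's goodness-of-fit of an intercept-only model, on genes at a mean of at least 1 CPM, with p-values adjusted by Benjamini-Hochberg and a limit of 0.05. The script was tested on simulated data. An alternative used DESeq2 1.42.0. Log2 differences used a prior count of 2. Intervals and floors cover counting error only. Between 2 genes, an exact sign-flip test over 3 libraries cannot give a two-sided p under 0.25, so none was run.

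Levels were planned per kb of coding length, with protein identity and promoter motifs; no lengths or sequences were used here, so levels are CPM. Symbols came from the RefSeq table of TAIR10.1, in which all 34 members were found. All members are named; in each further list the 3 highest and 2 lowest by mean CPM are named, and other genes named were chosen after their values were seen. The members and lists were chosen with earlier results of these data known. Libraries were left out in turn, and scaling, filter and halving were varied.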

Additional observations from a re-analysis of the deposited data

How the results depend on the processing

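No paired analysis was possible because the RNA libraries form a single group. The counts of members at 1, 10 and 100 CPM stayed at 33, 32 and 21 under median-ratio size factors, under library totals alone and without each replicate. The median log2 CPM of the 34 members was 6.97 (6.96 to 6.99 without 1 replicate) and 7.03 over the 33 at 1 CPM or more, since PORA is then left out. The number of members varying beyond the trended dispersion was 0 under each alternative run. The number beyond counting error was 2, and 1 without any 1 replicate (1 to 1). It was 13 on the counts as deposited, where 32.8% of all genes were called, since halving removes counts from the test. The median log2 difference of replicate 1 over members was -0.0018 with median-ratio size factors, of opposite sign to 0.00083, and the cause was not tested; it is near 0 under both. Family shares without 1 replicate ran from 81.5 to 82.6% for HEMA1, 48.0 to 48.8% for GSA2, 83.8 to 84.4% for CHLI1, 61.6 to 62.2% for PORB, 0.0952 to 0.128% for PORA, 76.1 to 76.9% for FC2 and 88.2 to 89.7% for BCH1. The shares per kb were not run. Counts as low as those of PORA limit what can be said of its variation.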

Other observations

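Transcription factors known to act on pigment genes were all expressed, 9 of 9 (56.3% of all genes), and 0 of them varied beyond genes of their level (edgeR's test on the trended dispersion; 0 had an unadjusted p under 0.05, and 0 were called against counting error alone). GLK1 (AT2G20570), which promotes chlorophyll synthesis genes in leaves, stood at 139, 129 and 141 CPM, and its relative GLK2 (AT5G44190) at 57.3, 50.2 and 56.5 CPM. Both were lowest in replicate 2, which was the lowest library for 33.1% of all expressed genes. FHY3 (AT3G22170), a far-red signalling factor, stood at 73.02, 80.9 and 79.6 CPM. The phytochrome-interacting factor gene PIF1 (AT2G20180) stood at 25.95, 23.1 and 28.5 CPM and the GATA factor gene CGA1 (AT4G26150) at 22.9, 23.3 and 25.5 CPM.

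The members are spread over the nuclear chromosomes, with 8 on chromosome 1, 2 on chromosome 2, 9 on chromosome 3, 5 on chromosome 4 and 10 on chromosome 5. HEMA1 was the only member with a protein-coding neighbour in the TAIR10.1 gene order that is also in the lists used here, the haem oxygenase gene HO4. HEMA1 had a mean of 165 CPM and HO4 one of 0.162 CPM.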
